A study of Mus musculus with 9 samples.

Results

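The piRNA pathway and germ granule genes followed here were Piwil2, Piwil4, Mael, Ddx4, Tdrd1, Tdrd9, Tdrkh, Mov10l1, Asz1 and Gtsf1. These 10 genes were chosen by name, and each was located by laying the intervals of the deposited expression table over the mouse gene annotation (GRCm38), because the names printed in the table were not used. Of 54913 assembled loci, 19286 were assigned to 12327 protein-coding genes, and a separate locus was found for 9 of the 10. Gtsf1 did not, and is described separately.

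RNA was sequenced from 3 kinds of mouse cells, with 3 libraries of each. All came from mice that carry a reverse tetracycline transactivator at Gt(ROSA)26Sor and a tetracycline-controlled cassette of Pou5f1, Sox2, Klf4 and Myc at Col1a1, so every group shared the doxycycline-inducible reprogramming factors. SSC were spermatogonial stem cells from the testes of 6-day-old pups, enriched by differential plating and by magnetic selection for the surface receptor Gfra1, and not passaged. SSCiPSC were induced pluripotent stem cells grown from such SSC as clonal colonies under doxycycline, and fiPSC were the same kind of cell made from male fetal fibroblasts. Both were purified for the surface antigen SSEA1 after several passages. The labels list doxycycline in the medium of the stem cells, whereas the methods of the study describe its stepwise removal, and the passage numbers given by these sources differ. The study calls the libraries biological samples, but the labels do not tie them to separate animals or lines, so the p-values measure only the spread between these libraries.

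piRNAs are small RNAs of the germ line that guide PIWI proteins to the transcripts of transposable elements, which are then cut or silenced. In male mouse germ cells the precursors are processed in germ granules, which lie between mitochondria and in perinuclear bodies, and the PIWI proteins are held there by Tudor-domain proteins that bind their methylated arginines. Loss of most of these genes in male mice releases transposons and stops spermatogenesis, and the genes are silent in most somatic tissues.

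The start regions of 5 of these genes are printed because they share a short sequence. Promoters of 300 bases ran from 250 before to 50 after the most upstream start annotated in RefSeq (GRCm38.p6). In RefSeq 9 of the 10 genes had an entry and Piwil2 had none. The palindrome CACGTG, the core of an E-box bound by Myc, Max and related basic helix-loop-helix proteins, was found in 5 of the 9 promoters (55.6%), namely those of Ddx4, Tdrd1, Tdrd9, Mael and Mov10l1. Of all 27025 promoters of this length, 7.24% held it. It was also found in 4 of 12 promoters of other piRNA pathway genes (33.3%) and in 3 of 11 promoters of other RNA-binding and defence genes of the germ line (27.3%). The promoters run 5′ to 3′ on the strand of the gene, and capitals mark CACGTG and the letters TCCCGC, a core bound by E2F6, on either strand (GCGGGA on the other strand).

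Ddx4, chr13:112652261-112652560, minus strand: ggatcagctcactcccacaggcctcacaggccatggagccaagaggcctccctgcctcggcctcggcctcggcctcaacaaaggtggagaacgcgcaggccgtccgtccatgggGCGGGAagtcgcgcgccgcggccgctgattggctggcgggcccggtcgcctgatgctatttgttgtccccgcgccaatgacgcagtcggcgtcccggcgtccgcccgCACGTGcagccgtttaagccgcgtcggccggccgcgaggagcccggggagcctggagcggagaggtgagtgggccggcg
Tdrd1, chr19:56825959-56826258, plus strand: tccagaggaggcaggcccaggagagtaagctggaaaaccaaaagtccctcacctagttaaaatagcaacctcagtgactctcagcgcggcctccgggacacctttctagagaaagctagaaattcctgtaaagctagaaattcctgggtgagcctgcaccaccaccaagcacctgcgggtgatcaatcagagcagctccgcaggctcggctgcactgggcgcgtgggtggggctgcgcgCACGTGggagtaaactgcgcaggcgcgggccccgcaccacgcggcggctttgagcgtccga
Tdrd9, chr12:111971309-111971608, plus strand: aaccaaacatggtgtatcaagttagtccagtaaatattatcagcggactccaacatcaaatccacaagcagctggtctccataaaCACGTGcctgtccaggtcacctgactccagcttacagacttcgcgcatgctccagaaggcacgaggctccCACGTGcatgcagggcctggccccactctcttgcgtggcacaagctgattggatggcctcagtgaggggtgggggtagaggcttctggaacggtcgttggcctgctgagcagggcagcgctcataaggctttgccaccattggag
Mael, chr1:166238695-166238994, minus strand: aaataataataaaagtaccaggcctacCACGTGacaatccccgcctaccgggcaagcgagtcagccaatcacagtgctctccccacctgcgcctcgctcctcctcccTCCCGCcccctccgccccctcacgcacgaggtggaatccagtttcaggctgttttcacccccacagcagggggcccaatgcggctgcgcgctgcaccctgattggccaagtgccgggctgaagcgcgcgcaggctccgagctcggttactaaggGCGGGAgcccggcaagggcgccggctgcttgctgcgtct
Mov10l1, chr15:88982744-88983043, plus strand: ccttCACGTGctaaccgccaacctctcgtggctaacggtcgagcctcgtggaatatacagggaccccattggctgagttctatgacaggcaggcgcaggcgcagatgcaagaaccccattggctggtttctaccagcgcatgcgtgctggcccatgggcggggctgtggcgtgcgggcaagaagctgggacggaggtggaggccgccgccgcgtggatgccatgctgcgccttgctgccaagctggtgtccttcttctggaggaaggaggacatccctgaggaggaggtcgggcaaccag

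Counted from the RefSeq start site, the CACGTG match began 11 bases before it in Tdrd1 and 29 bases before it in Ddx4. In Tdrd9 the match occurred at 165 and 95 bases before the start, in Mael at 223 and in Mov10l1 at 246 bases before it. The gene annotation used for the loci starts Ddx4 and Mov10l1 further upstream, at chr13:112652475 and chr15:88982909. By that annotation the match of Ddx4 lies inside the gene. In a shorter window of 200 bases, 3 of the 9 promoters (33.3%) and 5.51% of all promoters held the match. TCCCGC was found in the promoters of Ddx4 and Mael, which is 22.2% of the 9 beside 20.1% of all, and the cyclic AMP response element TGACGTCA was found in 0 of them (1.85% of all). The median observed-to-expected ratio of CpG dinucleotides was 0.733 over the 9 promoters and 0.389 over all, and 6 of the 9 (66.7%) reached a ratio of 0.6, as did 36.5% of all. A match is a description of the letters only.

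The libraries differed in depth and in the cells they held. From the step size of the lowest values, the SSC libraries held about 1770000, 4620000 and 1380000 fragments, the SSCiPSC libraries 15780000, 13680000 and 15000000, and the fiPSC libraries 13250000, 17560000 and 15410000. Levels are in FPKM, fragment counts scaled to exon length and to the size of the library. The SSC libraries expressed the spermatogonial markers Zbtb16 (72.0, 77.4 and 51.9 FPKM) and Ret (51.0, 52.8 and 40.3 FPKM), and Gfra1, the selection marker, at 37.7, 34.1 and 23.9 FPKM. They also held RNA of testicular somatic cells. The Sertoli cell gene Clu stood at 713, 645 and 538 FPKM and the Leydig cell gene Star, which carries cholesterol into mitochondria, at 745, 401 and 759 FPKM. In SSCiPSC and fiPSC the Sertoli markers Cst12, Cst9 and Defb19 were listed at 0 in all 6 libraries, and the pluripotency factor Nanog, listed at 0 in all 3 SSC libraries, reached 426 to 483 FPKM in SSCiPSC and 270 to 295 FPKM in fiPSC. All 9 pluripotency genes tested were higher in both reprogrammed groups than in SSC (limma), where 26.2% of all loci tested were called higher in SSCiPSC and 28.0% in fiPSC. Of these 9, Nanog, Esrrb and Tdgf1 had passed the filter on low values (1 FPKM or more in 3 or more of the 6 libraries compared) only through the reprogrammed group. Reads of the cassette and of the cells' own copies of Pou5f1 and Klf4, which are among these 9, were not told apart, and whether the cassette was active in these libraries was not tested. In such bulk RNA, fewer cells of a type and less RNA per cell cannot be told apart.

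In SSC the 9 genes spanned a wide range of levels, with Mael at the top and Piwil4 at the bottom. Mael averaged 159 ± 32.4 FPKM (SD, n = 3), followed by Ddx4 at 63.4 ± 15.5 and Piwil2 at 59.9 ± 10.6 FPKM, and these last 2 overlapped in their libraries. Mov10l1 (39.2 ± 7.43 FPKM), Asz1 (31.9 ± 3.98 FPKM) and Tdrd1 (30.0 ± 6.33 FPKM) formed a middle tier in which each neighbour overlapped the next. Tdrd9 (17.1 ± 5.80 FPKM) and Tdrkh (12.9 ± 0.836 FPKM) overlapped as well, and Piwil4 averaged 5.98 ± 2.39 FPKM. The SSC libraries were not alike. Replicate 2 gave the highest value for 8 of the 9 genes (replicate 1 for Piwil2), and replicate 3 the lowest for 8 of the 9 (replicate 1 for Tdrkh).

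**Figure D1:**
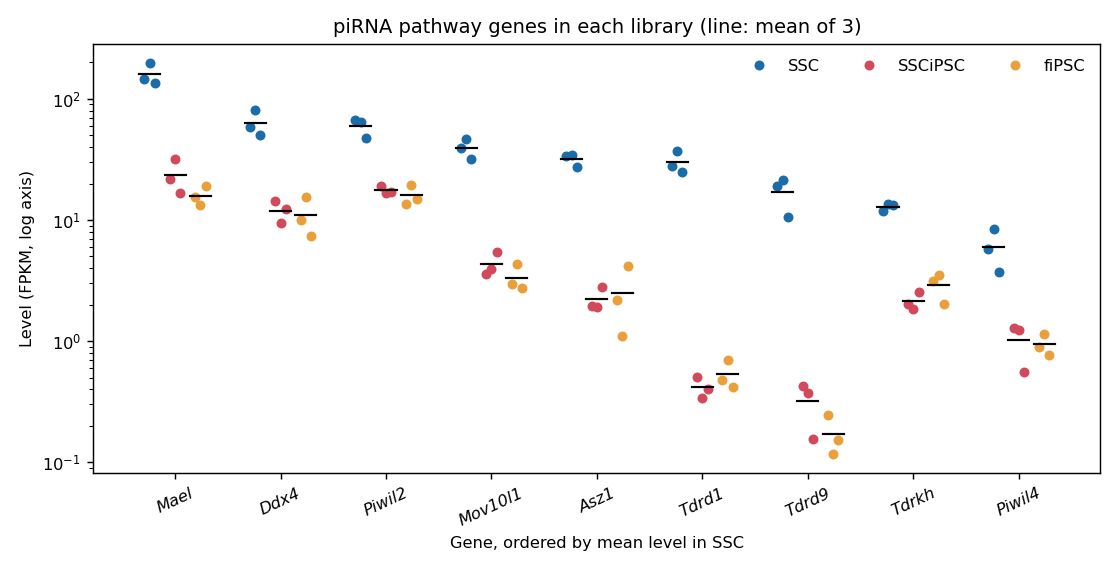
Level in FPKM (log axis) of the 9 genes with a locus of their own, in each of the 3 SSC, 3 SSCiPSC and 3 fiPSC libraries. Points are libraries and black lines group means; every SSC point lies above every SSCiPSC and fiPSC point of its gene, and the 2 reprogrammed groups overlap for all 9 genes.

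All 9 genes were lower in SSCiPSC than in the SSC from which such cells are made. Each passed the test (limma on log2(FPKM + 1), Benjamini-Hochberg adjusted over 36544 loci), and in each the lowest SSC library lay above the highest SSCiPSC library. Of all loci tested, 24.1% passed the test as lower and 28.7% were lower without overlap. The median difference of the 9 genes was -2.74 on the log2(FPKM + 1) scale, beside 0.11 over all loci tested. On this scale the change of a low gene is understated, so the levels themselves are given first. Tdrd1 and Tdrd9 had passed the filter on low values only through the SSC libraries, and 6 of the 9 genes stayed at 1 FPKM or more in every SSCiPSC library.

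Both PIWI genes among the 9 stood lower in SSCiPSC. Piwil2, which encodes the cytoplasmic PIWI protein MILI that cuts transposon transcripts (chr14:70372477-70429383, minus strand, 23 exons in the longest transcript), measured 67.6, 64.3 and 47.9 FPKM in SSC and 19.0, 16.9 and 16.9 FPKM in SSCiPSC. The 3 SSCiPSC libraries were close to each other and stood at 28.1 to 31.7% of the SSC mean, the highest share among the 9 genes. The fitted difference was -1.70 ± 0.17 (SE; adjusted p = 0.000448). A second locus, at the 3′ end of the same gene, fell by a similar amount, to 32.4% of its SSC mean (fitted difference -1.52, adjusted p = 0.00129). Piwil4, whose product enters the nucleus of fetal germ cells and directs DNA methylation to transposons (chr9:14696230-14740733, minus strand, 20 exons), measured 5.78, 8.47 and 3.69 FPKM in SSC and 1.29, 1.23 and 0.554 FPKM in SSCiPSC. This was the least abundant of the 9 genes in SSC, and its difference of -1.75 ± 0.35 had the widest error (adjusted p = 0.00637). Its SSC values rest on only about 7.6, 29.1 and 3.8 fragments, and those in SSCiPSC on about 15.2, 12.5 and 6.2. The locus used covered 22.6% of the longest Piwil4 transcript, and the other locus of the gene, which covered 59.5%, stood at 16.4% of its SSC mean (fitted difference -1.41, adjusted p = 0.0479). In fiPSC that other locus did not pass (difference -1.31, adjusted p = 0.0598). It held about 23.9, 32.6 and 3.26 fragments in the SSC libraries.

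The Tudor-domain genes kept unequal shares of their SSC level. Tdrd1, a scaffold of the germ granule that binds MILI (chr19:56826209-56870012, plus strand, 25 exons), measured 27.9, 37.1 and 24.97 FPKM in SSC and 0.505, 0.340 and 0.400 FPKM in SSCiPSC. That is 72.3-fold lower on the means, and even the lowest SSC library was 49.4-fold above the highest SSCiPSC library. Its fitted difference of -4.44 ± 0.23 was the largest of the 9 (adjusted p = 7.5e-05). Tdrd9, which joins a Tudor domain to an RNA helicase (chr12:111971559-112068854, plus strand, 36 exons), measured 19.3, 21.5 and 10.5 FPKM in SSC and 0.424, 0.373 and 0.157 FPKM in SSCiPSC. The mean fell 53.8-fold (fitted difference -3.73 ± 0.33, adjusted p = 0.000285). These values of Tdrd9 in SSCiPSC rest on only about 18.0, 13.7 and 6.33 fragments, and those of Tdrd1 on about 32.7, 19.0 and 24.6. A second locus of each gene gave a like picture, at 1.02% of the SSC mean for Tdrd1 and 2.28% for Tdrd9. Tdrkh, which is anchored in the mitochondrial outer membrane and brings PIWI proteins to the enzyme that trims piRNA ends (chr3:94413273-94434668, plus strand, 14 exons), measured 12.0, 13.6 and 13.2 FPKM in SSC and 2.04, 1.85 and 2.54 FPKM in SSCiPSC. Tdrkh kept 14.3 to 19.6% of its SSC mean, where Tdrd1 kept 1.13 to 1.68% and Tdrd9 0.916 to 2.48% (fitted difference of Tdrkh -2.15 ± 0.21, adjusted p = 0.000382). The locus used covered 24.6% of the longest Tdrkh transcript, and a second locus, which covered 23.7%, stood at 3.996% of its SSC mean (fitted difference -2.39, adjusted p = 0.000357). The share that Tdrkh kept therefore depends on the locus.

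The helicase genes and the other granule genes lay between these extremes. Ddx4, the Vasa homologue and a classical marker of germ cells (chr13:112598333-112652475, minus strand, 22 exons), measured 58.8, 80.7 and 50.7 FPKM in SSC and 14.3, 9.46 and 12.2 FPKM in SSCiPSC. The fitted difference was -2.30 ± 0.23 (adjusted p = 0.000441), and about 390 to 678 fragments per SSCiPSC library lay behind the remaining level. Mov10l1, a helicase that feeds piRNA precursors to the PIWI proteins (chr15:88982909-89055152, plus strand, 27 exons), measured 39.2, 46.7 and 31.8 FPKM in SSC and 3.59, 3.91 and 5.43 FPKM in SSCiPSC. It was 9.10-fold lower on the means (fitted difference -2.92 ± 0.22, adjusted p = 0.000194). Asz1, a mitochondrial membrane protein that holds granule proteins in place (chr6:18050964-18109061, minus strand, 13 exons), measured 34.1, 34.4 and 27.4 FPKM in SSC and 1.94, 1.92 and 2.79 FPKM in SSCiPSC. It was 14.4-fold lower (fitted difference -3.36 ± 0.20, adjusted p = 0.000106). Mael, a granule protein needed for transposon silencing (chr1:166201201-166238747, minus strand, 11 exons), measured 147, 196 and 135 FPKM in SSC and 21.7, 31.9 and 16.8 FPKM in SSCiPSC. Although 6.79-fold lower (fitted difference -2.74 ± 0.26, adjusted p = 0.000381), Mael had the highest mean of the 9 genes in SSCiPSC as well, at 23.5 ± 7.71 FPKM.

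**Figure D2:**
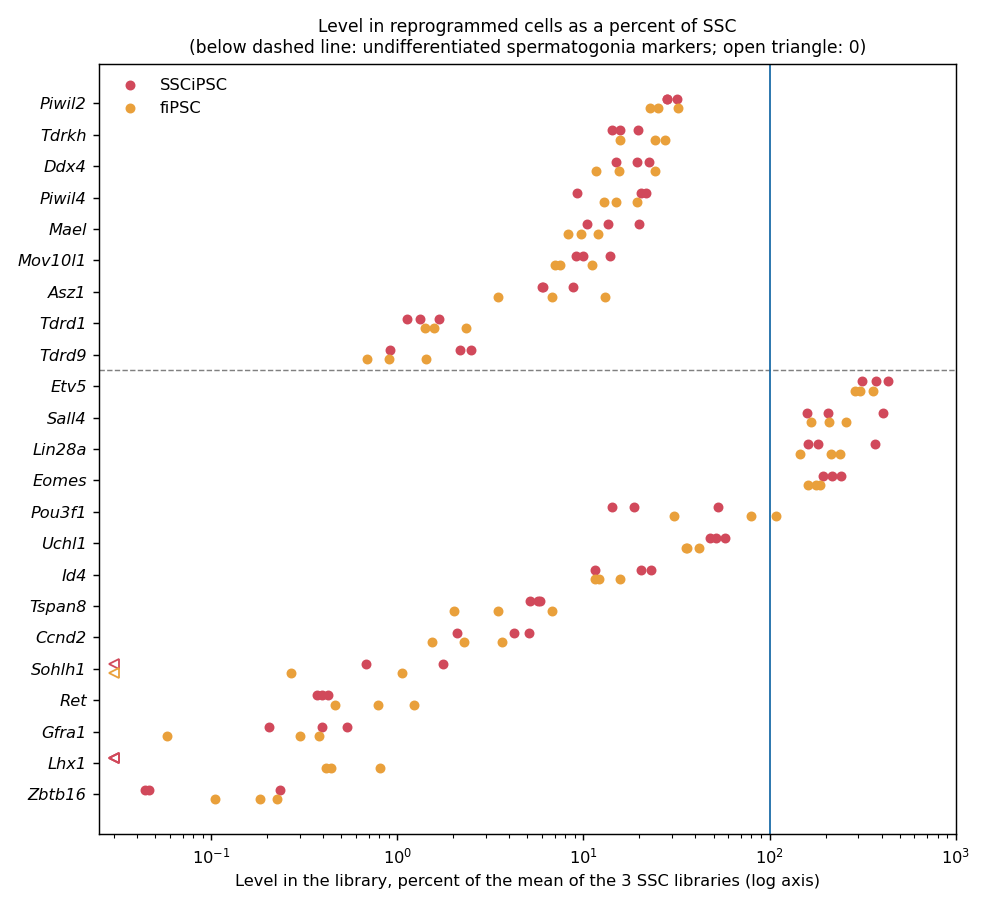
Level of each gene in the SSCiPSC and fiPSC libraries as a percent of its mean over the 3 SSC libraries (log axis), for the 9 piRNA pathway genes at the loci used and, below the dashed line, for the 14 markers of undifferentiated spermatogonia with a locus. Points are libraries and open triangles values of 0; the piRNA genes run from Piwil2, with a mean of 29.3% in SSCiPSC, down to Tdrd1, with 1.38%, and the markers run from Etv5, with 375%, down to Lhx1, listed at 0 in SSCiPSC.

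The remaining levels were set beside those of markers of undifferentiated spermatogonia, of which 14 were tested and 10 were lower and 4 higher in SSCiPSC than in SSC, where 24.1% and 26.2% of all loci tested were called lower and higher. Of the 10 lower ones, 6 had passed the filter on low values only through the SSC libraries. With 1 library left out, 9 or 10 were lower, but the number higher fell to 1 without SSCiPSC replicate 3 or SSC replicate 3, and to 2 without replicate 2 of either group. These markers spanned a wider range than the piRNA genes. Among those with the largest differences, Zbtb16, a transcription factor of undifferentiated spermatogonia, stood at 0.0438 to 0.234% of its SSC mean in the SSCiPSC libraries, Ret at 0.369 to 0.422% and Gfra1 at 0.204 to 0.536%. Sohlh1 reached at most 1.76%. The other markers that fell are named after their values were seen. Lhx1 was listed at 0 in SSCiPSC, Ccnd2 stood at 3.80% of its SSC mean and Tspan8 at 5.6%. Id4 stood at 18.3% of its SSC mean, Pou3f1 at 28.6% and Uchl1 at 52.5%. The markers that were higher, also named after their values were seen, were Etv5, Sall4, Lin28a and Eomes. Etv5 alone kept its call whichever library was left out. At the loci used, the piRNA genes other than Tdrd1 and Tdrd9 kept at least 6.01% in every SSCiPSC library, and the second Tdrkh locus lay below that.

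Expressing each gene relative to Ddx4 within the same library removes the share of germ cells in the SSC libraries, as far as both RNAs come from the same cells. Tdrd1 stood at 0.474, 0.460 and 0.492 of the Ddx4 level in SSC, a narrow spread for libraries whose Ddx4 levels ran from 50.7 to 80.7 FPKM. In SSCiPSC it stood at 0.0354, 0.0359 and 0.0327, and in fiPSC at 0.0479, 0.0456 and 0.0565, far below every SSC library. Piwil2 differed in the opposite direction, from 1.15, 0.798 and 0.944 of the Ddx4 level in SSC to 1.33, 1.78 and 1.38 in SSCiPSC and 1.37, 1.26 and 2.02 in fiPSC, with no overlap. Mael, at 2.50, 2.43 and 2.66 in SSC, overlapped with its SSCiPSC values of 1.52, 3.37 and 1.37. Of the 8 genes set against Ddx4, 4 were lower in SSCiPSC than in SSC without overlap (Tdrd1, Tdrd9, Mov10l1 and Asz1), 1 was higher (Piwil2) and 3 overlapped (Piwil4, Mael and Tdrkh). On the same scale, on which the fall of Ddx4 itself raises every ratio, 8.01% of all loci tested were lower and 71.8% higher in SSCiPSC without overlap. The entry of Tdrkh depends on the locus, since its second locus stood at 0.0873, 0.0644 and 0.113 of the Ddx4 level in SSC and at 0.0226, 0.026 and 0.0061 in SSCiPSC, lower without overlap. In fiPSC 3 genes were lower, 1 was higher and 4 overlapped, the difference from SSCiPSC being Asz1, and 6.16% of all loci tested were lower and 75.8% higher. Tdrd1 and Tdrd9 are among the lower genes and had passed the filter on low values only through SSC. With 3 libraries a group, an exact permutation test on such ratios cannot give a two-sided p below 0.1.

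SSCiPSC and fiPSC were compared to see whether the cell of origin left a mark on these genes. Of the 7 genes that passed the filter on low values, 0 passed the test (limma; 0 also at an unadjusted p below 0.05), beside 0.0678% of all loci tested at the adjusted and 11.7% at the unadjusted threshold. The 2 groups overlapped for all 9 genes, and did not overlap for 18.6% of all loci tested. The adjusted p-values ran from 0.479 for Mael to 0.985 for Asz1.

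A missed threshold does not show that the levels are equal, and the 95% intervals of the differences set the limits. Mael, with 15.4, 13.2 and 19.17 FPKM in fiPSC, had the difference furthest from 0, at -0.50 with an interval from -1.08 to 0.07 on the log2(FPKM + 1) scale. Piwil2 measured 13.6, 19.4 and 14.98 FPKM in fiPSC, and its interval ran from -0.51 to 0.23. Ddx4 measured 9.92, 15.4 and 7.42 FPKM, with an interval from -0.79 to 0.46. These intervals leave room for differences of modest size in either direction for Piwil2 and Ddx4. Tdrkh, at 3.11, 3.53 and 2.04 FPKM, had an interval from -0.22 to 0.80, and Mov10l1, at 2.95, 4.35 and 2.75 FPKM, one from -0.81 to 0.23. Asz1 was the most variable, at 2.18, 1.10 and 4.18 FPKM, with an interval from -0.76 to 0.82. Piwil4 stayed near 1 FPKM, at 0.892, 1.15 and 0.772, and its interval ran from -0.55 to 0.46. Tdrd1 (0.475, 0.701 and 0.419 FPKM) and Tdrd9 (0.244, 0.118 and 0.153 FPKM) were under 1 FPKM in all 6 libraries and were not tested.

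**Figure D3:**
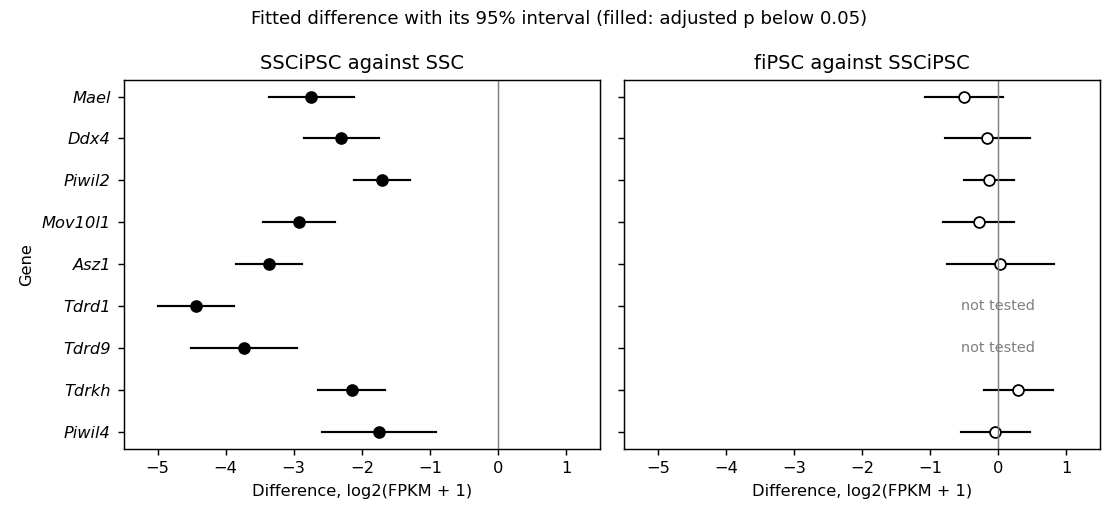
Fitted difference on the log2(FPKM + 1) scale with its 95% interval, for SSCiPSC against SSC on the left and fiPSC against SSCiPSC on the right. All 9 intervals on the left lie below 0; the 7 on the right include 0, and Tdrd1 and Tdrd9 were not tested there.

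Set against the same SSC libraries, fiPSC gave the same 9 calls, and these comparisons share their SSC samples. All 9 genes were lower (limma, adjusted over 38007 loci) and did not overlap with SSC, beside 23.7% of all loci called lower and 28.5% lower without overlap. The median difference was -3.21 for the 9 genes and 0.17 for all loci tested. Here too Tdrd1 and Tdrd9 had passed the filter on low values only through SSC. Tdrd1 stood at 1.77% of its SSC mean (fitted difference -4.32 ± 0.21, adjusted p = 6.4e-05), Tdrd9 at 1.004% (-3.89 ± 0.31, adjusted p = 0.000212) and Piwil2 at 26.7% (-1.84 ± 0.19, adjusted p = 0.000504).

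Gtsf1, a small zinc-finger protein that assists PIWI cutting, could not be separated from its neighbours. Its gene (chr15:103402405-103430470, minus strand) lies in an interval, chr15:103402398-103498858, that 6 loci share and that also holds its paralogue Gtsf2 on the minus strand and Nckap1l, a gene of blood cells, on the plus strand. The minus-strand locus measured 8.27, 10.4 and 7.53 FPKM in SSC, 1.54, 1.82 and 1.23 in SSCiPSC and 1.81, 1.22 and 2.73 in fiPSC. It was lower in SSCiPSC than in SSC (fitted difference -1.94 ± 0.24, adjusted p = 0.000988), but its reads may come from Gtsf1 or Gtsf2. The locus with the highest mean, which has no strand, did not pass, with 12.0, 16.1 and 38.6 FPKM in SSC beside 10.6, 20.2 and 17.1 FPKM in SSCiPSC (difference -0.33 ± 0.45, adjusted p = 0.58). Gtsf1 was therefore left out of the counts.

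The rest of the pathway did not move as one block. Of 20 other genes with a known part in piRNA production or piRNA-guided silencing, 17 had a locus of their own and were tested, and 8 were lower and 4 higher in SSCiPSC than in SSC, where 24.1% and 26.2% of all loci tested were called lower and higher. Tdrd6, Henmt1 and Dnmt3c had no locus of their own. The median difference was -0.76. Of the 8 lower genes, 4 (among them Tdrd7) were under 1 FPKM in every SSCiPSC library and had passed the filter on low values only through SSC, and of the higher ones Dnmt3l had passed it only through SSCiPSC. With no filter the counts were again 8 and 4. Tdrd7, a granule protein, measured 22.6, 22.6 and 20.4 FPKM in SSC and 0.882, 0.255 and 0.514 FPKM in SSCiPSC (fitted difference -3.90, adjusted p = 0.000111). Tdrd5 fell from 18.7, 21.7 and 10.7 to 0.812, 1.47 and 1.38 FPKM (-2.98, adjusted p = 0.000558), and Fkbp6, a co-chaperone of PIWI loading, from 99.5, 132 and 95.5 to 18.3, 25.8 and 19.0 FPKM (-2.32, adjusted p = 0.000263). The 4 that rose are named here after their values were seen, apart from Dnmt3l. Dnmt3l, the cofactor of de novo DNA methylation, was listed at 0.622, 0 and 0 FPKM in SSC and reached 62.0, 110 and 81.8 FPKM in SSCiPSC (6.15, adjusted p = 6.4e-05). Rnf17, a Tudor-domain gene of germ cells, rose from 49.7, 59.5 and 33.9 to 287, 151 and 197 FPKM (2.11, adjusted p = 0.00156), which was above the level of each of the 9 genes in SSCiPSC. Morc1, needed for transposon silencing in the male germ line, rose from 22.0, 29.1 and 19.4 to 132, 124 and 105 FPKM (2.32, adjusted p = 0.000227), and Tdrd12, a helicase that binds MILI, from 12.7, 17.8 and 9.37 to 27.9, 36.5 and 31.3 FPKM (1.24, adjusted p = 0.0065). The same 4 genes were at 86.1, 54.1 and 125 (Dnmt3l), 160, 203 and 146 (Rnf17), 89.1, 72.2 and 95.8 (Morc1) and 42.6, 29.9 and 46.1 FPKM (Tdrd12) in fiPSC. Of those that did not pass, Gpat2, a mitochondrial protein that binds MILI, measured 30.8, 25.5 and 15.5 FPKM in SSC and 15.8, 11.9 and 12.3 FPKM in SSCiPSC (adjusted p = 0.059), and the trimming enzyme Pnldc1 12.6, 12.1 and 8.21 FPKM against 14.5, 13.5 and 13.7 FPKM (adjusted p = 0.213).

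**Figure D4:**
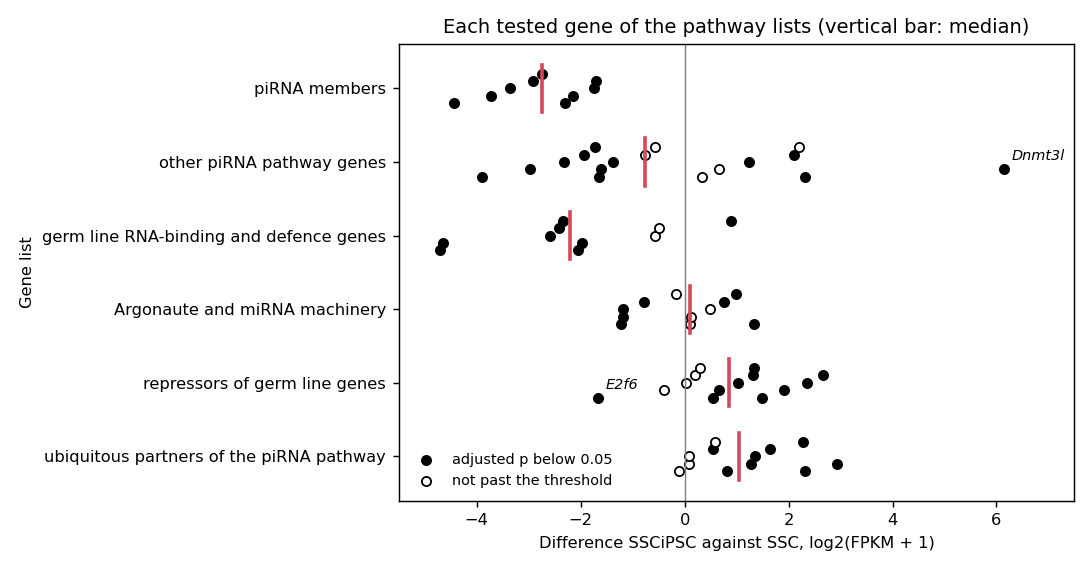
Fitted difference of SSCiPSC against SSC on the log2(FPKM + 1) scale for each tested gene of 6 lists, filled where the adjusted p was below 0.05, with the median of each list as a vertical bar. The 9 piRNA genes all lie below -1.5, while the other pathway genes run from -3.90 to 6.15 and the ubiquitous partners and repressors lie mostly above 0.

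Other RNA-binding and defence genes of the germ line were mostly lower. Of 10 tested, 7 were lower and 1 was higher in SSCiPSC, with a median of -2.20, where 24.1% and 26.2% of all loci tested were called lower and higher. Rbm46 had passed the filter on low values only through SSC. The higher one, named after its value was seen, was Ybx2 (0.90, adjusted p = 0.0422), and its call was lost when any 1 library was left out, with adjusted p-values of 0.0528 to 0.130. Dazl, a translational regulator of germ cells, measured 194, 263 and 174 FPKM in SSC and 34.9, 42.3 and 36.2 FPKM in SSCiPSC (-2.43, adjusted p = 0.000199). Rbm46 went from 30.7, 35.6 and 22.9 to 0.227, 0.130 and 0.133 FPKM (-4.70, adjusted p = 7.4e-05), and Tex101, a germ cell surface protein, from 34.6, 55.0 and 37.3 to 0.475, 1.09 and 0.564 FPKM (-4.65, adjusted p = 8.9e-05). Tex19.1, which is active in germ cells and in pluripotent cells, measured 74.0, 66.9 and 49.2 FPKM in SSC and 39.5, 49.7 and 37.8 FPKM in SSCiPSC, at the edge of the threshold (-0.56, adjusted p = 0.053).

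Of 12 partners that the pathway shares with other cells, 8 rose and 0 fell in SSCiPSC (8 at an unadjusted p below 0.05), with a median of 1.04, where 26.2% and 24.1% of all loci tested were called higher and lower. After quantile normalization 5 were higher and 1 lower, and the median was 0.47. Prmt5, which methylates the arginines that Tudor domains read, rose from 26.4, 33.4 and 27.0 to 154, 146 and 133 FPKM (2.28, adjusted p = 0.000111), and the chaperone Hsp90aa1, used in PIWI loading, from 125, 168 and 102 to 1107, 968 and 919 FPKM (2.94, adjusted p = 0.000158). Uhrf1, which brings maintenance methylation to replicated DNA, rose from 40.7, 42.4 and 39.5 to 170, 276 and 190 FPKM (2.31, adjusted p = 0.000262). The P-body proteins Edc4 and Xrn1 did not pass (adjusted p = 0.824 and 0.778). Dcp2 and Dcp1a of the same list, named after their values were seen, were higher (limma, 1.36 and 0.82, adjusted p = 0.00147 and 0.0156).

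The Argonaute and miRNA genes, the small RNA machinery of all cells, had no common direction. Of 11 tested, 3 were higher and 4 lower, with a median of 0.10. These are 27.3% and 36.4% of the list, beside 26.2% and 24.1% of all loci tested. After quantile normalization 1 was higher and 4 lower, and the median was -0.17. Without SSCiPSC replicate 2, and also without SSCiPSC replicate 3, 1 was higher and 3 were lower. Tnrc6b went from 28.2, 28.5 and 23.4 FPKM in SSC to 11.4, 11.45 and 9.84 FPKM in SSCiPSC (limma, -1.22, adjusted p = 0.00108). Tnrc6c went from 53.3, 57.9 and 40.1 to 15.4, 30.4 and 20.5 FPKM (-1.19, adjusted p = 0.011). The call of Tnrc6b was the same under all 16 alternatives and that of Tnrc6c under 15. Ago1 stood at 4.60, 3.74 and 1.28 FPKM in SSC and 7.51, 10.0 and 9.46 FPKM in SSCiPSC (1.34, adjusted p = 0.025), and Ago3 at 10.1, 17.1 and 28.2 against 6.14, 6.996 and 7.64 FPKM (-1.19, adjusted p = 0.0301). The calls of Ago1 and Ago3 were lost when any 1 SSCiPSC library was left out, with adjusted p-values of 0.0578 to 0.0957. That of Ago3 was also lost without SSC replicate 2. Dicer1, at 23.6, 24.8 and 19.4 FPKM in SSC and 15.02, 24.9 and 21.0 FPKM in SSCiPSC, did not pass (adjusted p = 0.562).

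Of 14 genes known to keep germ line genes silent in pluripotent and somatic cells, 9 rose and 1 fell in SSCiPSC, with a median of 0.85, beside the same 26.2% and 24.1% of all loci tested. After quantile normalization 6 were higher and 2 lower, and the median was 0.13. Pcgf6, a subunit of the non-canonical Polycomb complex that sits on germ line promoters, rose from 8.97, 14.3 and 11.7 to 42.2, 49.1 and 47.0 FPKM (1.91, adjusted p = 0.000447). Trim28, the corepressor of zinc-finger proteins that silence retroelements, rose from 127, 148 and 114 to 468, 1029 and 613 FPKM (2.36, adjusted p = 0.000963), and the heterochromatin protein gene Cbx1 from 84.8, 117 and 110 to 623, 720 and 641 FPKM (2.67, adjusted p = 0.000106). E2f6, the DNA-binding partner of the same Polycomb complex, was the gene that fell, from 28.7, 36.6 and 36.7 to 8.87, 9.41 and 11.9 FPKM (-1.67, adjusted p = 0.000583). Setdb1 and Ehmt1, histone H3 methyltransferases, did not pass (adjusted p = 0.196 and 0.926).

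None of the genes in these lists passed the adjusted test (limma) between SSCiPSC and fiPSC. At an unadjusted p below 0.05, which 11.7% of all loci tested reached, there were 2 of the 13 other piRNA genes tested there, 3 of 9 germ line RNA-binding and defence genes, 1 of 12 ubiquitous partners, 0 of 11 Argonaute and miRNA genes and 1 of 14 repressors. Against SSC, fiPSC gave 9 lower and 5 higher of the 17 other piRNA genes, 8 lower and 1 higher of the 10 germ line RNA-binding genes, 9 higher of the 12 partners, 2 higher and 4 lower of the 11 Argonaute and miRNA genes, and 9 higher and 1 lower of the 14 repressors, where 28.0% of all loci tested were called higher and 23.7% lower. Of the lower genes, Piwil1, Exd1, Spocd1 and Rbm46 had passed the filter on low values only through SSC. Dnmt3l, among the higher ones, had passed it only through fiPSC.

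The markers of other testis cells are given beside these results because they moved with the same contrast. Of the Sertoli markers tested, 9 of 10 were lower in SSCiPSC than in SSC, and Rhox5, named after its value was seen, was higher. Of the Leydig markers 6 of 6 were lower, of the endothelial markers 3 of 6 (Pecam1 was higher), of the macrophage markers 3 of 5, of the peritubular myoid markers 2 of 6 and of the fibroblast markers 5 of 10 (Fn1 was higher). The macrophage count fell to 1 when any 1 SSCiPSC library was left out and to 2 without SSC replicate 1. It was 4 without SSC replicate 2 and without SSC replicate 3. Of all loci tested 24.1% were called lower, and 2 of 6 peritubular myoid markers is 33.3%. The filter on low values had been passed only through SSC by 8 Sertoli, 5 Leydig, 3 endothelial, 4 macrophage and 1 of the peritubular myoid markers tested. The summed Sertoli level was 1379, 1410 and 1138 FPKM in the SSC libraries, and in the SSCiPSC libraries 303, 215 and 275 FPKM, of which Rhox5 alone made up 296, 212 and 272 FPKM.

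Within SSC, replicate 3 combined the lowest levels of the 9 piRNA genes, 345 FPKM in sum beside 412 and 503 FPKM, with the highest sums of the macrophage markers (88.5 FPKM, beside 27.0 and 13.1 FPKM), the fibroblast markers (870 FPKM, beside 460 and 423 FPKM) and the Leydig markers (1024 FPKM, beside 933 and 580 FPKM). Its sums of Sertoli markers and of peritubular myoid markers (85.7 FPKM, beside 102 and 99.2 FPKM) were the lowest, and its sum of endothelial markers (97.4 FPKM) lay between those of replicates 1 and 2 (116 and 57.0 FPKM). The part of these cells in the spread of the piRNA genes was not tested. Without SSC replicate 3, and without any other single library, all 9 piRNA genes kept their calls against SSC.

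**Figure D5:**
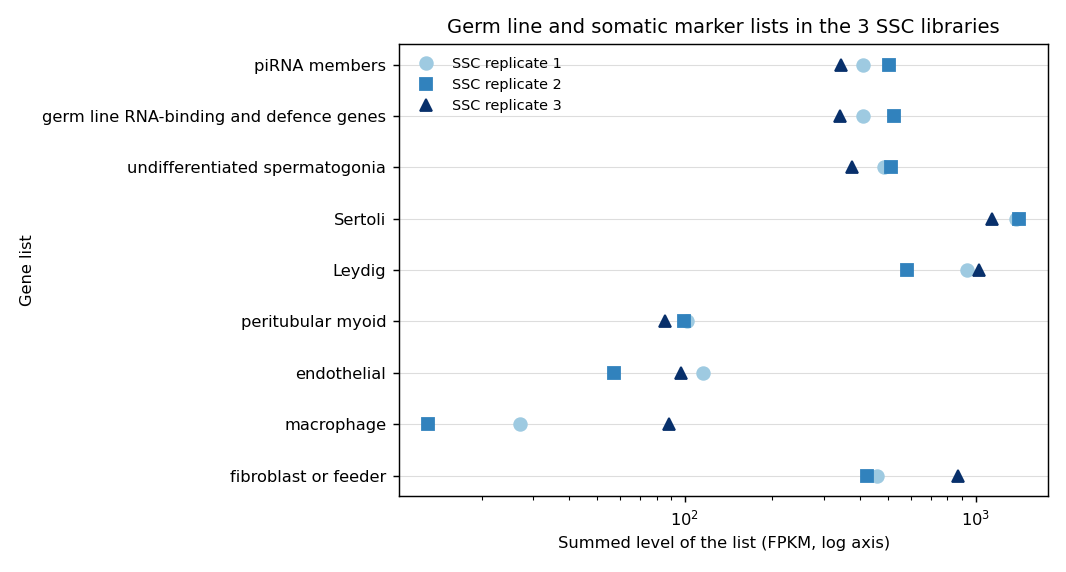
Summed level in FPKM (log axis) of germ line and somatic marker lists in the 3 SSC libraries, 1 symbol for each library. Replicate 3 (triangle) is lowest for the 3 germ line lists and highest for the macrophage, fibroblast and Leydig lists.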

How the data were processed

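RNA sequencing of 9 libraries, 3 each of SSC, SSCiPSC and fiPSC, was deposited by the authors as 1 table of FPKM per assembled locus. The labels name ribosomal RNA depletion and a stranded mRNA kit, Trimmomatic 0.32, TopHat2 2.0.9, Bowtie2 2.1.0, Cufflinks 2.2.1 and Cuffdiff. They name the build mm9, but the coordinates fitted GRCm38 (78.5% of 16363 stranded loci matched a protein-coding gene of GENCODE M21, and 20.4% and 20.1% after a shift of 1000000 bases). 1 locus of 54914 had a blank value and was left out. The authors' gene names and the second deposited file, which lists only numbers of features, were not used.

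A locus was named for the gene whose interval overlapped it by at least 50% on the same strand (loci without a strand had to be at least 50% exonic and alone in their interval), and of several loci the one with the highest mean was taken. Kit, Ago1, Star, Tdgf1, Pou3f1 and Spocd1 were read at loci without a strand, which may cover only part of a gene. Groups were compared in pairs with limma 3.58.1 (R 4.3.3), with a trend, on log2(FPKM + 1) for loci of at least 1 FPKM in at least 3 of 6 libraries, and p-values were adjusted by Benjamini-Hochberg over all loci tested, with a threshold of 0.05. The fit was tested on simulated data. Depth was read from the spacing of the smallest FPKM values at loci without a strand, alone in their interval and 600 to 6000 bases long. At these loci all values below 5.5 fragments lay within 0.15 of a whole number. The fragment numbers given for genes multiply FPKM, exonic length and depth. No bases were taken off the exonic length, as was done in the depth estimate, so these numbers may be too high. A value of 0 may also be a failed estimate, so such genes are described as listed at 0.

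The members and lists were chosen with earlier results of these data known. Named were all members, and from each other list up to 4 genes past the threshold with the largest difference between SSCiPSC and SSC and up to 3 others of the highest mean. The alternatives were other pseudocounts, filters, scalings, fits and thresholds, and leaving out each library.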

Additional observations from a re-analysis of the deposited data

How the results depend on the processing

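All 9 members stayed lower than SSC, in SSCiPSC and in fiPSC, under every alternative that tested them, and 0 of those tested passed between SSCiPSC and fiPSC under any. With a filter of a mean of at least 5 FPKM, 8 members were tested in each comparison with SSC, all called lower. Counting Gtsf1 by its minus-strand locus, chosen after seeing the data, gave 10 of 10 in both comparisons with SSC, and by the locus of the highest mean 9 of 10. For SSCiPSC against SSC the all-loci median went from 0.11 to 0.23 under median-ratio scaling, with all 9 calls kept.

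Over all loci, the mean filter, with fewer loci tested, gave 10070 calls for SSCiPSC against SSC (18396 in the fit reported), 10528 for fiPSC against SSC (19680) and 10 for fiPSC against SSCiPSC (23). The last count was 11 with all 9 libraries in the fit, 9 at an adjusted p below 0.01, and 6 to 20 with 1 library left out; the cause was not tested. No pairing by replicate number was seen, as the correlation of same-numbered deviations ran from -0.24 to 0.02 and not every library correlated best with its own number. A weak correlation between different kinds of cells cannot exclude a shared animal or batch. With the replicate number as a block, the calls over all loci were 16926, 6 and 17546 for SSCiPSC against SSC, fiPSC against SSCiPSC and fiPSC against SSC, and those of the members 9, 0 and 9. Leaving out 1 library gave 4 to 7 calls for the Argonaute and miRNA genes, 1 to 4 for the macrophage markers, 10 to 12 for the markers of undifferentiated spermatogonia (14 in the fit reported) and 3 or 4 for those of differentiating spermatogonia. In the promoter window of 200 bases the share of members with CACGTG was 33.3%. The 3 SSC libraries were the shallowest, which limits genes that are low in SSC, whereas for Tdrd1 and Tdrd9 the fewest fragments lay in the reprogrammed libraries.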

Other observations

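Of 6 markers of differentiating spermatogonia tested, 2 were higher and 2 lower in SSCiPSC than in SSC (33.3% each, beside 26.2% and 24.1% of all loci tested). Dmrt1, a transcription factor of spermatogonia, went from 76.8, 114 and 72.5 FPKM in SSC to 9.16, 14.0 and 14.4 FPKM in SSCiPSC (limma, fitted difference -2.71 on the log2(FPKM + 1) scale, adjusted p = 0.000334). The other lower gene, Rhox13, went from 14.4, 8.12 and 4.85 to 2.03, 1.74 and 4.48 FPKM (-1.39, adjusted p = 0.0396), and its call was lost without replicate 1 or 2 of either group, with adjusted p-values of 0.0805 to 0.129. The Rhox13 call was also lost after quantile normalization, with all 9 libraries in the fit and with the replicate number as a block. Kit, the receptor that marks differentiating spermatogonia and is also found in pluripotent cells, went from 13.6, 10.1 and 15.6 to 44.8, 51.8 and 49.2 FPKM (1.83, adjusted p = 0.000457), and stood at 27.7, 30.8 and 28.4 FPKM in fiPSC. Sohlh2 was higher as well (1.37, adjusted p = 0.00572). The meiotic gene Stra8 measured 6.06, 24.1 and 6.10 FPKM in SSC and 16.8, 27.3 and 13.3 FPKM in SSCiPSC and did not pass (0.84, adjusted p = 0.25). Without SSC replicate 2 it passed as higher (1.45, adjusted p = 0.0155).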
